A study of Saccharomyces cerevisiae with 8 samples.

Results

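Transcript levels of 34 budding yeast genes for redox defence and thiol enzymes were examined among 5449 genes measured in Saccharomyces cerevisiae. The members were the thioredoxin, peroxiredoxin, glutathione and glutaredoxin genes with their regulators, together with superoxide dismutase, catalase and cytochrome c peroxidase genes. They were chosen by function, with earlier results of these data known. Of the 34, 29 are called thiol and flavin members, counting the regulators, the glutathione synthesis genes and the putative aryl-alcohol dehydrogenase gene AAD6. The other 5, described apart, are called heme and metal members, counting the copper chaperone gene CCS1. The tested strain carried the plasmid pRS416TEF-Kir2.1-HA for the mammalian potassium channel Kir2.1, which passes current mainly inward, and was measured on 4 arrays. Its control carried the vector pRSGPD426 and was also measured on 4 arrays, which the labels, unlike those of Kir2.1, mark as a re-analysis. Per the labels' protocols both groups were harvested from selective medium in mid exponential growth at 26 °C. The groups therefore differ in plasmid, in Kir2.1 and in the re-analysis mark, and these cannot be told apart. The labels give no strain background or other allele.

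Yeast detoxifies peroxides with peroxiredoxins and glutathione peroxidases, whose reactive cysteines are oxidised by the peroxide and then reduced again by thioredoxin or by glutathione. Thioredoxin reductase and glutathione reductase return the electrons from NADPH, and glutaredoxins reduce disulfides between proteins and glutathione. The transcription factors Yap1 and Skn7 induce many of these genes when cells meet peroxide. Superoxide is removed by dismutases that carry copper and zinc or manganese, and catalases and cytochrome c peroxidase use heme to break down hydrogen peroxide.

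Levels are given as log2 distances from each array's median gene, on a scale reconstructed from the standardized scores that the authors deposited, and a difference is the Kir2.1 mean minus the vector control mean. Without centring on the median gene every difference is lower by 0.13 (-0.13), so that differences between 0 and this size change sign. Each of the 34 genes had 1 probe set of its own, and 0 of these probe sets is marked as shared with another transcript. A level is called within the background where it does not exceed the level under which 95% of the same array's S. pombe probe sets lie, and 84.9% to 88.6% of all S. cerevisiae genes exceeded it. Of the members, 29 lay above the background on all 8 arrays, and 31 on at least 4. SRX1, AAD6 and CTA1 lay within it on all 8. Their values enter the counts and medians over all members, but no change in expression is read from them. OYE3 and GTT2 lay within it on Kir2.1 replicate 2 and vector control replicate 4. URA3, the selection marker of such plasmids, stood at 3.43 ± 0.31 in Kir2.1 and 3.34 ± 0.16 in vector control arrays (SD, n = 4 each).

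No redox gene passed the test between Kir2.1 and vector control. With limma and Benjamini-Hochberg adjustment over all genes, 0 of 34 members had an adjusted p under 0.05, where 0% of all 5449 genes did, and the smallest adjusted p among members was 0.551. The unmoderated test also called 0 genes. At an unadjusted p under 0.05 there were 3 members, SRX1, TSA1 and GRX6, which is 8.82% of them against 8.35% of all genes. All 3 were higher in Kir2.1, where at that threshold 6.37% of all genes were higher and 1.98% lower. This split of all genes, 347 higher and 108 lower, was 119 and 145 after quantile normalization and 6 and 999 without centring. After quantile normalization TSA1 had an unadjusted p of 0.957 and SOD2, lower in Kir2.1, one of 0.0129. The median standard error of a member's difference was 0.0863. Of the 31 members above the background on at least 4 arrays, 27 had a 95% interval that lay within 1.5-fold in either direction. Of all 5449 genes, 4751 had such an interval. The 4 with wider intervals were TSA2, GPX1, OYE3 and CCP1. All 31 intervals lay within 2-fold, as did those of 5306 of all genes. These intervals hold for values centred on the median gene.

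Small differences leaned to higher means in the Kir2.1 arrays. A higher mean was found for 26 of 34 members (76.5%), against 58.7% of all genes, and the median difference was 0.10 over the members and 0.03 over all genes. Of the 34 members, 9 lay in the brightest decile of all genes, where the median difference of all genes was 0.12. With quantile normalization, which equalises the distributions, 20 of 34 members had a higher mean against 48.9% of all genes, and the median difference was 0.04. Without centring 12 of 34 members had a higher mean, as had 1165 of all 5449 genes, with a median of -0.03 over members and of -0.10 over all genes. Counts without centring given below for parts of the members and for other lists stand against that count over all genes. Among the 29 thiol and flavin members 25 had a higher mean with a median of 0.11, and among the 5 heme and metal members 1 had a higher mean with a median of -0.01. That median is the difference of CTA1, and over the 4 heme and metal members above the background it was -0.06. After quantile normalization 20 of the 29 thiol and flavin members and 0 of the 5 heme and metal members had a higher mean. Without centring 12 of the 29 and 0 of the 5 had one. Without Kir2.1 replicates 1 and 3 and vector control replicate 1, which are described further on, 4 of the 5 had a higher mean (median 0.05). On the same remaining arrays 24 of the 29 had a higher mean (median 0.06), as had 3135 of all 5449 genes. In 5 members (14.7%) the lowest Kir2.1 value exceeded the highest control value, against 5.05% of all genes. These were TSA1, SRX1, GLR1, GRX6 and SOD1. The reverse order occurred in 0 members and in 1.54% of all genes. After quantile normalization SRX1, within the background, and GRX6 were the 2 members with every Kir2.1 value higher, against 1.82% of all genes, and SOD2 the 1 with every Kir2.1 value lower, against 1.73%. TSA1, GLR1 and SOD1 then overlapped.

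**Figure D1:**
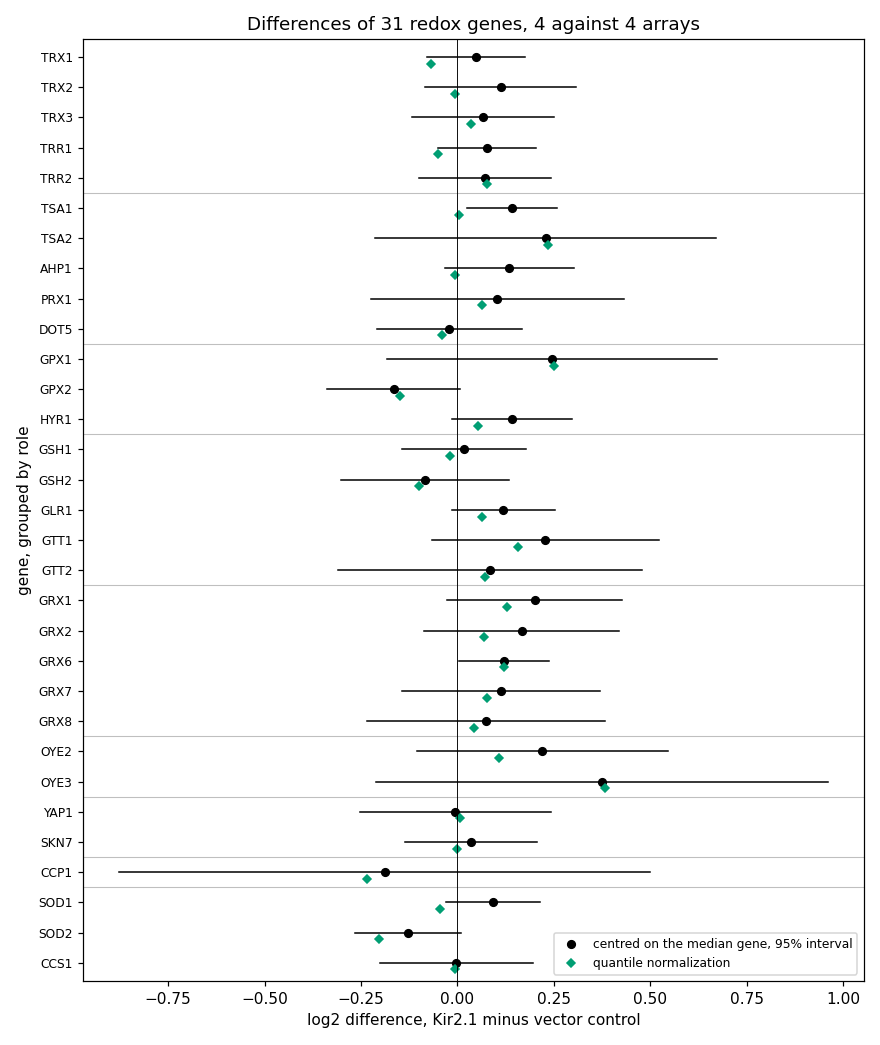
Difference of the log2 level, Kir2.1 minus vector control, for the 31 redox genes above the background on 4 or more arrays, grouped by role and separated by grey lines. Black points are the limma estimates with values centred on the median gene and bars their 95% intervals (4 arrays against 4), and green diamonds are the differences after quantile normalization; the interval of CCP1 is the widest, with a standard error of 0.30, and TSA1 shrinks to 0.0031 after quantile normalization.

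In the thioredoxin system, the Kir2.1 mean was higher for all 5 genes by small amounts, between 0.05 and 0.11, but for 2 of 5 after quantile normalization and 0 of 5 without centring, and none passed. TRX1 (YLR043C), a cytosolic thioredoxin, stood at 3.11, 3.19, 3.13 and 3.25 in Kir2.1 replicates 1 to 4, against 3.09, 3.14, 3.10 and 3.17 in vector control replicates 1 to 4. The TRX1 values of the groups overlapped on a narrow range, with a standard deviation over all 8 arrays of 0.0552, lower than in most genes (percentile 3.51 of all genes). Its paralog TRX2 (YGR209C), a Yap1 target, had 3.38, 3.14, 3.46 and 3.31 in Kir2.1 arrays, against 3.35, 3.16, 3.10 and 3.21 in control arrays. TRX2 was highest on Kir2.1 replicates 3 and 1 and on vector control replicate 1, and its difference was 0.11 (SE 0.09, limma adjusted p = 0.711). After quantile normalization the differences were -0.07 for TRX1 and -0.0065 for TRX2.

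TRR1 (YDR353W) encodes the cytosolic thioredoxin reductase, which reduces thioredoxin with NADPH. It stood at 3.13, 3.21, 3.14 and 3.12 in the Kir2.1 arrays, against 2.99, 3.13, 3.09 and 3.09 in the control arrays. Kir2.1 replicate 4 lay below vector control replicate 2, so the groups overlapped, and the difference was 0.08 (SE 0.06, limma adjusted p = 0.711) and -0.05 after quantile normalization. Mitochondria have their own pair, the thioredoxin Trx3 and the reductase Trr2. TRR2 (YHR106W) had levels of 0.17, 0.07, 0.32 and 0.04 in Kir2.1 arrays, against 0.16, 0.02, 0.08 and 0.05 in control arrays, and TRX3 (YCR083W) ranged from 0.75 to 1.04 in Kir2.1 and from 0.79 to 1.0 in control arrays. Both genes were highest on Kir2.1 replicates 1 and 3 and vector control replicate 1, an order that crosses the groups.

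Of the peroxiredoxin genes, TSA1 (YML028W), which encodes the main cytosolic peroxiredoxin, had the smallest p of the members above the background. It stood at 4.16, 4.13, 4.14 and 4.17 in Kir2.1 arrays, against 4.02, 4.04, 3.94 and 4.04 in control arrays. The TSA1 groups did not overlap, and the difference was 0.14 (SE 0.05, unadjusted p = 0.0226, limma adjusted p = 0.551). TSA1 belongs to the brightest decile of genes, and its difference was 0.0031 after quantile normalization, with overlapping groups. AHP1 (YLR109W), a peroxiredoxin that prefers alkyl hydroperoxides, had 4.16, 4.21, 4.28 and 3.99 in Kir2.1 arrays, against 4.06, 4.05, 3.95 and 4.05 in control arrays. Kir2.1 replicate 4 was within the control range of AHP1, and the difference of 0.13 (SE 0.07, limma adjusted p = 0.681) was -0.0061 after quantile normalization.

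TSA2 (YDR453C), the stress-inducible paralog of TSA1, varied far more between arrays. Its levels were -0.41, -1.40, -0.62 and -0.79 in Kir2.1 arrays, against -0.85, -1.11, -1.17 and -1.0 in control arrays. Kir2.1 replicates 1, 3 and 4 lay above every control array, while Kir2.1 replicate 2 was the lowest of all 8. The difference was 0.23 (SE 0.19, limma adjusted p = 0.734), and the standard deviation over 8 arrays was 0.317 for TSA2 and 0.0837 for TSA1. PRX1 (YBL064C), the mitochondrial peroxiredoxin, ranged from 1.26 to 1.86 in Kir2.1 and from 1.29 to 1.74 in control arrays, with its highest values on Kir2.1 replicates 3 and 1 and vector control replicate 1. DOT5 (YIL010W), a nuclear peroxiredoxin, ranged from 0.38 to 0.65 in Kir2.1 and from 0.44 to 0.63 in control arrays. SRX1 (YKL086W), the sulfiredoxin that repairs overoxidised peroxiredoxins, had the smallest unadjusted p of all members (0.0139). Its levels of -2.50, -2.61, -2.50 and -2.02 in Kir2.1 arrays, against -2.95, -2.75, -2.79 and -2.71 in control arrays, did not overlap but all lay within the background.

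The glutathione peroxidase genes differed in both directions, and none passed. GPX1 (YKL026C), a starvation-inducible glutathione peroxidase, had 0.44, -0.50, 0.14 and 0.19 in Kir2.1 arrays, against 0.06, -0.29, -0.28 and -0.21 in control arrays. As for TSA2, Kir2.1 replicate 2 was the lowest array and the other 3 Kir2.1 arrays lay above every control array, and the difference was 0.25 (SE 0.19, limma adjusted p = 0.711). GPX2 (YBR244W), a Yap1-dependent peroxidase gene, had -1.17, -0.97, -1.03 and -1.03 in Kir2.1 arrays, against -0.98, -0.94, -0.71 and -0.91 in control arrays. GPX2 had a lower mean in Kir2.1 arrays, with a difference of -0.17 (SE 0.08, limma adjusted p = 0.613) that was -0.15 after quantile normalization. HYR1 (YIR037W), also known as GPX3, encodes the peroxidase that senses peroxide and oxidises Yap1. It stood at 2.83, 2.63, 2.86 and 2.76 in Kir2.1 arrays, against 2.71, 2.59, 2.57 and 2.64 in control arrays, and its difference of 0.14 (SE 0.07, limma adjusted p = 0.619) was 0.05 after quantile normalization.

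**Figure D2:**
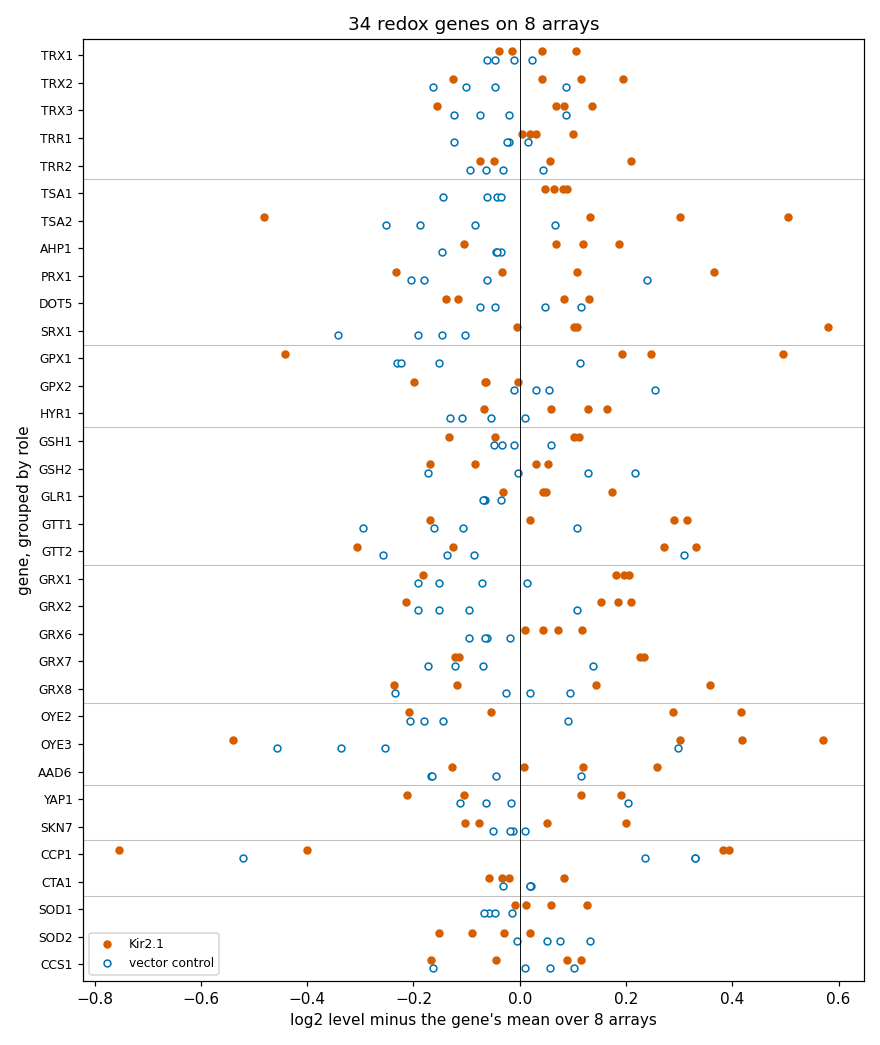
Log2 level of each of the 34 redox genes on each array minus that gene's mean over the 8 arrays, grouped by role and separated by grey lines. Filled orange points are the 4 Kir2.1 arrays and open blue points the 4 vector control arrays; for TSA2, GPX1 and OYE3 the lowest point is Kir2.1 replicate 2, and for CCP1 the 3 lowest are Kir2.1 replicates 3 and 1 and vector control replicate 1.

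The glutathione synthesis genes overlapped between the groups. GSH1 (YJL101C), the rate-limiting enzyme of glutathione synthesis, ranged from 1.03 to 1.28 in Kir2.1 and from 1.12 to 1.23 in control arrays, with a difference of 0.02 (95% interval -0.14 to 0.18). GSH2 (YOL049W), the glutathione synthetase, ranged from 0.22 to 0.44 in Kir2.1 and from 0.22 to 0.60 in control arrays. GLR1 (YPL091W), the glutathione reductase, had levels of 2.06, 1.99, 2.07 and 2.19 in Kir2.1 arrays, against 1.98, 1.95, 1.95 and 1.95 in control arrays. The groups of GLR1 did not overlap, although Kir2.1 replicate 2 and vector control replicate 1 nearly met, and the difference was 0.12 (SE 0.06, limma adjusted p = 0.629) and 0.06 after quantile normalization. GTT1 (YIR038C), a glutathione transferase of the endoplasmic reticulum, had 2.33, 1.87, 2.35 and 2.06 in Kir2.1 arrays, against 2.15, 1.88, 1.74 and 1.93 in control arrays. GTT2 (YLL060C), another glutathione transferase, had -1.20, -1.78, -1.14 and -1.60 in Kir2.1 arrays, against -1.16, -1.61, -1.56 and -1.73 in control arrays. Both transferase genes were highest on Kir2.1 replicates 1 and 3 and vector control replicate 1, with differences of 0.23 (SE 0.13) for GTT1 and 0.09 (SE 0.17) for GTT2.

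For all 5 glutaredoxin members the Kir2.1 mean was higher, also after quantile normalization, but for 2 of 5 without centring, and none passed. GRX6 (YDL010W), a glutaredoxin of the secretory pathway, had 0.41, 0.35, 0.39 and 0.46 in Kir2.1 arrays, against 0.28, 0.25, 0.28 and 0.33 in control arrays. The groups of GRX6 did not overlap, also after quantile normalization, and the difference was 0.12 (SE 0.05, unadjusted p = 0.0451, limma adjusted p = 0.594), with 0.12 after quantile normalization and -0.0087 without centring. Its paralog GRX7 (YBR014C) had 1.16, 0.81, 1.16 and 0.81 in Kir2.1 arrays, against 1.07, 0.76, 0.86 and 0.81 in control arrays. GRX7 thus overlapped between groups, with its highest values on Kir2.1 replicates 1 and 3 and vector control replicate 1.

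GRX1 (YCL035C) and GRX2 (YDR513W), the main dithiol glutaredoxins, both had their 3 highest values on Kir2.1 replicates 1, 3 and 4. GRX1 had 2.27, 1.88, 2.26 and 2.24 in Kir2.1 arrays, against 2.08, 1.87, 1.91 and 1.99 in control arrays. GRX2 had 3.10, 2.68, 3.04 and 3.07 in Kir2.1 arrays, against 3.00, 2.74, 2.70 and 2.79 in control arrays. In both genes 3 Kir2.1 arrays lay above every control array and Kir2.1 replicate 2 lay at the low end, with differences of 0.20 (SE 0.10, limma adjusted p = 0.629) for GRX1 and 0.17 (SE 0.11, limma adjusted p = 0.708) for GRX2. GRX8 (YLR364W), a further glutaredoxin gene, ranged from 1.32 to 1.91 in Kir2.1 and from 1.32 to 1.65 in control arrays, with Kir2.1 replicate 4 highest.

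The Old Yellow Enzymes are flavin-dependent NADPH dehydrogenases. OYE2 (YHR179W) had levels of 3.23, 2.88, 3.35 and 2.73 in Kir2.1 arrays, against 3.03, 2.79, 2.76 and 2.73 in control arrays, a difference of 0.22 (SE 0.14, limma adjusted p = 0.707). OYE3 (YPL171C) had -1.07, -1.91, -0.80 and -0.95 in Kir2.1 arrays, against -1.07, -1.82, -1.62 and -1.70 in control arrays. For OYE3, vector control replicate 1 stood with Kir2.1 replicates 1, 3 and 4 and Kir2.1 replicate 2 with the other controls, and the difference was 0.38 (SE 0.26, limma adjusted p = 0.711). The paralogs differed on Kir2.1 replicate 4, which was high for OYE3 and at the bottom for OYE2. AAD6 (YFL056C), a putative aryl-alcohol dehydrogenase known as a Yap1 target, ranged from -2.75 to -2.36 in Kir2.1 and from -2.79 to -2.51 in control arrays, within the background.

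The regulator genes did not separate the groups. YAP1 (YML007W) ranged from -0.45 to -0.04 in Kir2.1 and from -0.35 to -0.03 in control arrays, with a difference of -0.0051 (95% interval -0.25 to 0.24). SKN7 (YHR206W) ranged from 0.68 to 0.98 in Kir2.1 and from 0.73 to 0.79 in control arrays, with a difference of 0.04 (95% interval -0.14 to 0.21). Yap1 and Skn7 are controlled largely after translation, which these transcript levels do not measure.

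Of the heme enzymes, CCP1 (YKR066C), the mitochondrial cytochrome c peroxidase, varied more between arrays than any other member. It stood at 1.22, 2.01, 0.86 and 2.0 in Kir2.1 arrays, against 1.1, 1.95, 1.86 and 1.95 in control arrays. Kir2.1 replicates 1 and 3 and vector control replicate 1 lay between 0.86 and 1.22, and the other 5 arrays between 1.86 and 2.01, so that each group held both levels. The group difference of CCP1 was -0.19 (SE 0.30, limma adjusted p = 0.841), and 0.09 without these 3 arrays. CTA1 (YDR256C), the peroxisomal catalase, which glucose represses, lay within the background on all 8 arrays, at -3.20, -3.09, -3.23 and -3.21 in Kir2.1 arrays, against -3.21, -3.16, -3.15 and -3.16 in control arrays.

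Among the metal enzymes, SOD1 (YJR104C), the copper-zinc superoxide dismutase of the cytosol, had 3.92, 3.99, 3.86 and 3.88 in Kir2.1 arrays, against 3.81, 3.85, 3.80 and 3.82 in control arrays. The SOD1 groups did not overlap, but the difference of 0.09 (SE 0.05, limma adjusted p = 0.687) was -0.05 after quantile normalization. SOD2 (YHR008C), the manganese dismutase of mitochondria, had 2.14, 2.26, 2.31 and 2.20 in Kir2.1 arrays, against 2.42, 2.28, 2.37 and 2.34 in control arrays. Its Kir2.1 mean was the lower one, the difference being -0.13 (SE 0.06, limma adjusted p = 0.617), with an overlap of Kir2.1 replicate 3 and vector control replicate 2. After quantile normalization SOD2 differed by -0.20 with the highest Kir2.1 value below the lowest control value. CCS1 (YMR038C), the chaperone that hands copper to Sod1, had 0.27, 0.42, 0.14 and 0.40 in Kir2.1 arrays, against 0.15, 0.41, 0.37 and 0.32 in control arrays. CCS1 was lowest on the same 3 arrays as CCP1, with a group difference of -0.0033 (SE 0.09).

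The spread of these genes over the 8 arrays was compared with that of all genes. In 3 members the standard deviation lay in the top decile of all genes: CCP1 (0.474), OYE3 (0.441) and TSA2 (0.317). In 4 members it lay in the bottom decile: CTA1, which was within the background, and TRX1, TRR1 and SOD1 at 0.0552, 0.0632 and 0.0651. The median standard deviation was 0.129 over the members and 0.136 over all genes, and 16 of 34 members lay above the median gene.

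**Figure D3:**
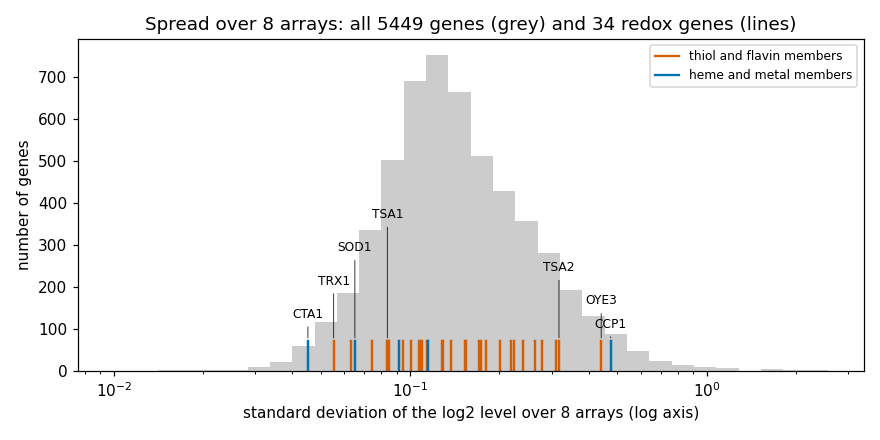
Histogram of the standard deviation of the log2 level over 8 arrays for all 5449 genes (grey, log horizontal axis, number of genes on the vertical axis), with a line for each of the 34 redox genes (orange, thiol and flavin; blue, heme and metal). CTA1, TRX1 and SOD1 lie at the low end and TSA2, OYE3 and CCP1, at 0.317 to 0.474, at the high end.

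Part of this spread ran across the groups. The iron regulon, a list of 14 genes for iron uptake, had median levels of 2.41, -0.78, 2.55 and -1.04 in Kir2.1 replicates 1 to 4, against 2.16, -0.12, -0.94 and -0.41 in vector control replicates 1 to 4. On Kir2.1 replicates 1 and 3 and vector control replicate 1, all 14 iron genes had their 3 highest values, and 13 of the 14 exceeded the background on 4 or more arrays. The summed level of the list ranged from 3.48 to 6.76 in Kir2.1 and from 3.70 to 6.34 in control arrays on the log2 scale. These 3 arrays were also the 3 highest for 9 redox genes (26.5%), as they were for 16.7% of all genes, and the 3 lowest for 3 redox genes (8.82%), as for 18.4% of all genes. The 9 were TRX2, TRX3, TRR2, PRX1, DOT5, GTT1, GTT2, GRX7 and OYE2; by known location they include cytosolic, mitochondrial, nuclear and secretory proteins. The 3 were CCP1, CCS1 and GSH2. The arrays were singled out by their iron values and are not groups of the study, and the part of iron in these levels was not tested.

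**Figure D4:**
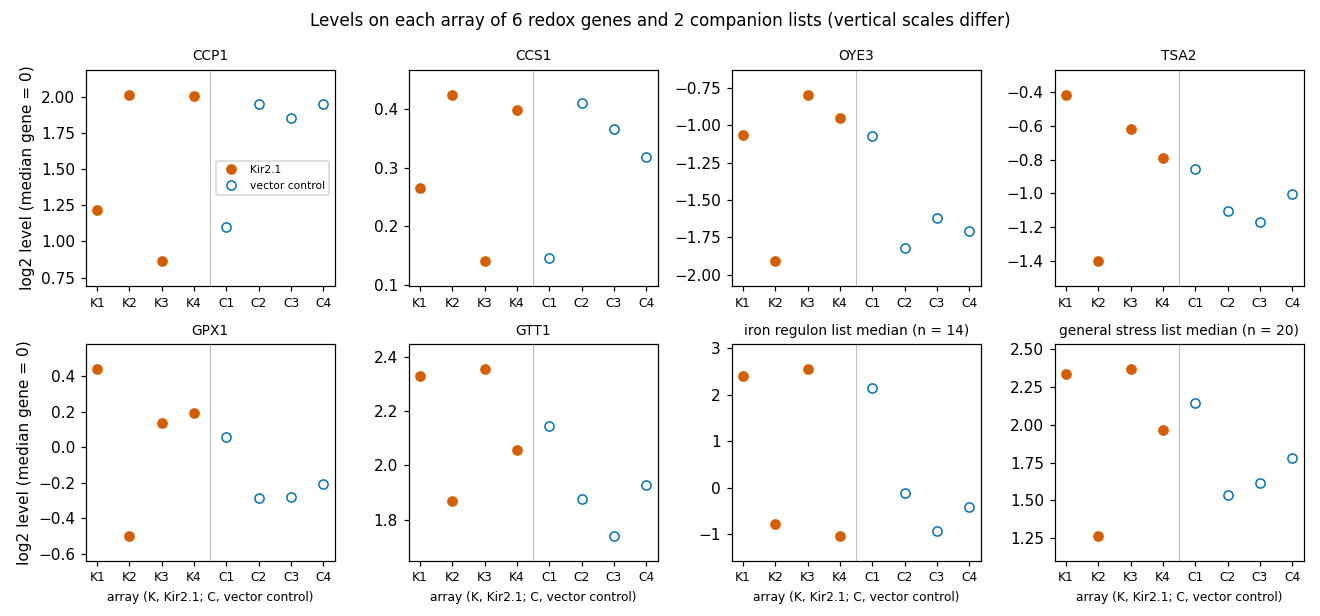
Log2 level, relative to the median gene, of 6 redox genes and the median of the iron regulon and general stress lists on each array (K1 to K4, Kir2.1, filled orange; C1 to C4, vector control, open blue; vertical scales differ). CCP1 and CCS1 are low on K1, K3 and C1, where the iron list is at 2.16 to 2.55, and OYE3, TSA2 and GPX1 are low on K2, where the stress list is at its lowest, 1.27.

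General stress genes also differed between arrays. The list of 20 genes had medians of 2.34, 1.27, 2.37 and 1.96 in Kir2.1 arrays, against 2.14, 1.53, 1.61 and 1.78 in control arrays, with summed levels of 6.44 to 7.13 in Kir2.1 and 6.43 to 6.97 in control arrays. By median, Kir2.1 replicate 2 was the lowest and Kir2.1 replicates 3 and 1 and vector control replicate 1 the highest. By summed level the same arrays were highest, but vector control replicate 3 (6.43) was just below Kir2.1 replicate 2 (6.44). All 20 stress genes exceeded the background on 4 or more arrays. The Kir2.1 mean was higher for 19 of the 20 (median difference 0.21), for 18 after quantile normalization and for 14 without centring. Of all 5449 genes, 3200 had a higher mean, 2663 after quantile normalization and 1165 without centring. Limma called 0 of the 20, and the part of stress in the redox levels was not tested.

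The count of 0 called members held when vector control replicate 1 or Kir2.1 replicate 2 was left out alone, but not when both were. Without these arrays, which for OYE3 stood with the other group, 5 members (14.7%) had a limma adjusted p under 0.05. The share of all genes was 9.32%, and all 5 members had higher means in Kir2.1. These were OYE3 at 0.78 (adjusted p = 0.0185), GPX1 at 0.51 (0.0292), TSA2 at 0.49 (0.0405), and GRX1 and GRX2 at 0.33 each (0.0292 and 0.0289). Because the omitted arrays were picked for such a likeness to the other group, these values describe the remaining 6 arrays and are no test of the groups. Of the 20 general stress genes, 13 were called on these 6 arrays, all with higher means in Kir2.1. Among those 6, the arrays with high iron values were Kir2.1 replicates 1 and 3, so the split by iron values then lay within no control array. With array weights, which gave Kir2.1 replicates 2 and 4 and vector control replicate 1 weights of 0.231, 0.267 and 0.372 and the other 5 arrays between 0.861 and 4.2, 14 members (41.2%) were called against 31.8% of all genes. Of these 14, 12 were higher, among them SRX1 within the background, and GPX2 (-0.22) and CCP1 (-0.65) were lower in Kir2.1. The larger Kir2.1 weights fell on replicates 1 and 3, which had high iron values. The smallest control weight fell on replicate 1, which had them too. The weighted fit thus cannot tell the groups apart from the split of the arrays by iron values, and is no test of the groups. Without the 3 arrays with high iron values, 0 members and 0% of all genes were called on the remaining 5 arrays. There TSA2, OYE3, GPX1 and CCP1 differed by -0.0011, 0.29, 0.11 and 0.09.

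Other genes of the same pathways were read from lists by function, and limma called 0 of them. For the genes that supply NADPH, the electron donor of the reductases above, the Kir2.1 mean was higher in 8 of 8 cases. This also held after quantile normalization and without centring. The median difference was 0.18, and 0.10 after quantile normalization and 0.05 without centring. Of all 5449 genes, 3200 had a higher mean, 2663 after quantile normalization and 1165 without centring. Without the 3 arrays with high iron values 7 of the 8 had a higher mean (median 0.16), as had 3135 of all genes. POS5 (YPL188W), a mitochondrial NADH kinase, stood at 0.76, 0.64, 0.65 and 0.85 in Kir2.1 arrays, against 0.40, 0.38, 0.61 and 0.51 in control arrays, a difference of 0.25 (SE 0.08, limma adjusted p = 0.551). GND1 (YHR183W), a dehydrogenase of the pentose phosphate pathway, differed by 0.17 (SE 0.05, limma adjusted p = 0.551) and by 0.05 after quantile normalization. POS5 differed by 0.23 after quantile normalization. In neither gene did the groups overlap, but both were named for the smallest p of their list. Every Kir2.1 value was the higher in 3 of the 8 genes and in 5.05% of all genes.

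Of 5 monothiol glutaredoxin and methionine sulfoxide reductase genes, 2 had a higher mean, with a median difference of -0.15. Without the 3 arrays with high iron values 3 of the 5 had a higher mean and the median was 0.13, and 3 of the 5 (GRX4, GRX5 and MXR1) were lowest on exactly those arrays. MXR2 (YCL033C), a methionine sulfoxide reductase, had 0.47, 0.35, 0.42 and 0.42 in Kir2.1 arrays, against 0.26, 0.26, 0.15 and 0.26 in control arrays, without overlap (difference 0.18, SE 0.05, limma adjusted p = 0.551). GRX3 (YDR098C), which serves iron sensing, differed by -0.15 (SE 0.09, limma adjusted p = 0.694). Among 17 further glutathione and glyoxalase genes 13 had a higher mean (median 0.08), 12 after quantile normalization (median 0.06) and 4 without centring. The smallest unadjusted p values in that list belonged to DUG1, a peptidase of glutathione breakdown, with a difference of 0.14 (SE 0.06), and to SFA1, a formaldehyde dehydrogenase that uses glutathione, with 0.13 (SE 0.07), while the largest difference was that of GTO3 (0.69), which was above the background on 3 of 8 arrays and highest on the 3 arrays with high iron values. Among 13 further genes linked to Yap1 12 had a higher mean (median 0.12), 12 after quantile normalization (median 0.11) and 3 without centring. The smallest unadjusted p values there belonged to AAD14 and AAD4, putative aryl-alcohol dehydrogenases, with differences of 0.18 (SE 0.10) and 0.13 (SE 0.08), while the largest difference was that of HBN1 (0.32), also highest on those 3 arrays. AAD14 lay above the background on 1 of 8 arrays. Without the 3 arrays with high iron values 3 of these 13 had a higher mean, and the median was -0.05.

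Of 8 further heme, metal and nitric oxide defence genes 5 had a higher mean (median 0.08), 4 after quantile normalization and 2 without centring. Without the 3 arrays with high iron values 3 had one (median -0.04). COX17 (YLL009C), a copper chaperone for cytochrome oxidase, had 0.20, 1.32, 0.35 and 1.32 in Kir2.1 arrays, against 0.72, 1.37, 1.38 and 1.39 in control arrays, so that it was low on the same 3 arrays as CCP1. Its difference was -0.42 (SE 0.29, limma adjusted p = 0.711), and -0.06 without those arrays. YHB1 (YGR234W), the nitric oxide dioxygenase, differed by 0.09 (SE 0.07) and by -0.02 after quantile normalization. In the list of 13 heme synthesis and oxygen response genes 6 had a higher mean, with medians per array of 0.99 to 1.35 in Kir2.1 and 1.30 to 1.36 in control arrays. Summed levels were 4.78 to 5.33 in Kir2.1 and 4.87 to 5.28 in control arrays. These medians hide single genes: 4 of the 13 were lowest and 1 was highest on exactly the 3 arrays with high iron values. Of all genes, 18.4% were lowest and 16.7% highest on those arrays.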

How the data were processed

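Yeast RNA was read on 8 arrays, 4 per group. The authors deposited a standardized score per probe set, whose mean is 0 and standard deviation 1 on every array, as tested over the 10715 probe sets. The lowest scores lay between -0.47 and -0.44. The sources used here do not give the probe summary, background correction or zero point. A log2 scale was rebuilt by setting each array's zero 0.005 of its standard deviation under the lowest score, and each array was centred on the median of the 5449 genes. The planned test assumed such scores. Without centring every difference shifts by -0.13.

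Probe sets were named from the platform annotation, updated through RefSeq gene identifiers of assembly R64: 5498 had 1 S. cerevisiae gene, 1746 S. pombe genes, 1 several and 3470 no entry. Where a gene had several probe sets (47 genes), the brightest on average was kept. Of the value columns, 0 were left unused. The group test was two-sided limma (version 3.58.1, lmFit then eBayes, R 4.3.3), adjusted over all genes. The script was tested on simulated data. Precision is limited by the number of arrays. The labels do not say that replicates are separate cultures, the series calls them biological, and p-values measure only the spread between these arrays. No columns were identical, with correlations of 0.971 to 0.998 between arrays.

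Members and gene lists were chosen with earlier results of these data known. Values per array are given for the 10 members with the smallest p, the 6 with the largest standard deviation, the heme and metal members and the paralog pairs, and the 2 genes with the smallest p are named from each list of other pathway genes; GTO3, HBN1 and the 3 list members lowest on the iron-high arrays were named after their values were seen. For the iron, stress and heme lists summed and median levels and counts are given, and of their genes only CTT1 is given by array, chosen after its values were seen. AAD15, AAD16 and GEX2 were not analysed here. Alternatives were other zeros, centrings, filters, probe choices, no log, array weights, an unmoderated test, a replicate block and omitted arrays. Deviations of same-numbered arrays correlated at 0.81, 0.69, -0.66 and 0.39 for replicates 1 to 4. Only for Kir2.1 replicate 1 was the same-numbered control the best match. The main test did not pair arrays by number, and these values do not settle whether the numbers pair them.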

Additional observations from a re-analysis of the deposited data

Results flagged for a closer look

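In 6 of the 68 sets of 4 arrays examined, 1 array stood apart from the other 3 by a gap that took up most of the range, and chance gives about 1 in 20. GRX1 on Kir2.1 replicate 2 was at 1.88, with the other Kir2.1 arrays at 2.24 to 2.27. GRX2 on the same array was at 2.68, with the others at 3.04 to 3.10. CCP1 on vector control replicate 1 was at 1.1, with the other controls at 1.86 to 1.95. On that array GLR1 was at 1.98, with the others at 1.95, and CTA1, within the background, at -3.21, with the others at -3.16 to -3.15. AHP1 on vector control replicate 3 was at 3.95, with the others at 4.05 to 4.06.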

How the results depend on the processing

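Of 21 alternatives, 19 left the count of called redox genes at 0, array weights gave 14 and the omission of Kir2.1 replicate 2 together with vector control replicate 1 gave 5. Over all genes array weights called 1735, that omission 508, the untransformed scores 1 and the other settings 0. The median difference of the thiol and flavin members, 0.11, was -0.017 without centring, which shifts every gene by -0.13, and otherwise 0.062 to 0.16. That of the heme and metal members ran from -0.14 to 0.046. Single omissions called 0 genes and 0 members, with medians of 0.079 to 0.15 for the thiol and flavin members and of -0.058 to 0.032 for the heme and metal members.

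No member whose sign changed under an alternative was called there. Apart from the shift without centring and the fewer arrays in omissions, the cause was not tested. Without centring the differences that changed sign were TRX1 -0.081, TRX2 -0.017, TRX3 -0.064, TRR1 -0.053, TRR2 -0.058, PRX1 -0.026, GSH1 -0.11, GLR1 -0.011, GTT2 -0.044, GRX6 -0.0087, GRX7 -0.017, GRX8 -0.056, SKN7 -0.094 and SOD1 -0.037. Centring on the 75th percentile gave GSH1 -0.027 and SKN7 -0.0081. Quantile normalization gave TRX1 -0.068, TRX2 -0.0065, TRR1 -0.049, AHP1 -0.0061, GSH1 -0.018, YAP1 0.0067, SKN7 -0.0019 and SOD1 -0.046. The scores without a log gave, in score units, TRX1 -0.17, TRX2 -0.018, TRX3 -0.013, TRR1 -0.10, GSH1 -0.047, GRX8 -0.014, SKN7 -0.025, CTA1 0.011 and SOD1 -0.12. Array weights gave TRX1 -0.0082, DOT5 0.10, GSH1 -0.044, GRX8 -0.11, YAP1 0.045 and SKN7 -0.013. CTA1 lies within the background on all 8 arrays. The zero at 0.02 gave CTA1 0.020, and the filter on dim genes CCS1 0.00074. With the same pair of arrays omitted (Kir2.1 replicate 2, vector control replicate 1) they were DOT5 0.057, YAP1 0.13 and SKN7 -0.036. Without the 3 arrays with high iron values they were TSA2 -0.0011, GTT2 -0.056, YAP1 0.016, CCP1 0.089, CTA1 0.0046 and CCS1 0.046.

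Over single omissions the sign changed in 10 members: PRX1 (-0.00071 to 0.20), DOT5 (-0.068 to 0.022), GSH1 (-0.018 to 0.064), GTT2 (-0.011 to 0.20), GRX8 (-0.034 to 0.16), YAP1 (-0.069 to 0.065), SKN7 (-0.025 to 0.076), CCP1 (-0.39 to 0.032), CTA1 (-0.045 to 0.0027) and CCS1 (-0.058 to 0.052). The replicate block, for which it is not settled whether the numbers pair the arrays, called 0 genes and 0 members. It left the median difference of the thiol and flavin members at 0.11 and changed no sign. The number of arrays and the assumed zero limit what the dim genes can show.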

Other observations

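Values of 3 other genes, chosen after they were seen, followed the arrays and not the groups. GRX4 (YER174C), a monothiol glutaredoxin of iron sensing, had -0.10, 1.40, -0.23 and 1.53 in Kir2.1 arrays, against -0.02, 1.20, 1.33 and 1.29 in control arrays, and so was low on Kir2.1 replicates 1 and 3 and vector control replicate 1. GRX5 (YPL059W), a mitochondrial glutaredoxin of iron-sulfur cluster assembly, had 1.19, 1.61, 1.12 and 1.57 in Kir2.1 arrays, against 1.32, 1.63, 1.59 and 1.67 in control arrays, and was lowest on the same arrays. CTT1 (YGR088W), the cytosolic catalase, had 0.75, -0.53, 0.63 and 0.53 in Kir2.1 arrays, against 0.85, -0.08, -0.04 and 0.30 in control arrays, and was highest on these 3 arrays and lowest on Kir2.1 replicate 2.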
